A study of Mus musculus with 2 samples.

Results

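The 10 genes described here are the mineralization genes Spp1, Ibsp, Dmp1, Mepe, Dspp, Bglap, Bglap2, Alpl, Phex and Enpp1. They were picked by symbol from the 32285 genes counted, and all 10 were present. Their transcripts were followed in single cells of mouse periodontal ligament, the tissue that hangs the tooth root in the alveolar bone. The OTM library (orthodontic tooth movement) came from the upper left first molar, pulled mesially with a 10-g force for 6 days. The Control library came from the right side, which carried no force. Both were made from male C57BL/6J mice aged 8 weeks, with tissue of 5 mice pooled per library, taken from extracted roots and from sockets and digested with collagenase and trypsin. Each group was therefore 1 library of the 10x Genomics 3' v3.1 chemistry, so no spread between mice could be measured and no test between the groups was possible. Whether the sides came from the same mice was not given. The series title names neutrophils and osteoclast formation in tooth movement. The question asked of the 10 genes here was which bone, ligament, pulp and myeloid cells carried them on the loaded and on the unloaded side.

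Spp1 (osteopontin), Ibsp (bone sialoprotein), Dmp1, Mepe and Dspp are the SIBLING genes, which encode acidic, integrin-binding phosphoproteins of bone and dentin matrix. Bglap and Bglap2 encode osteocalcin, the vitamin K-dependent protein that osteoblasts deposit in bone. Alpl, Enpp1 and Phex encode cell-surface enzymes: Alpl (tissue-nonspecific alkaline phosphatase) breaks down pyrophosphate, an inhibitor of mineral, Enpp1 makes pyrophosphate, and Phex is an endopeptidase of osteoblasts and osteocytes whose loss causes phosphate wasting. Osteopontin is also made by macrophages and osteoclasts, so it is not a gene of bone-forming cells alone.

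The 5 SIBLING genes lie next to each other on the plus strand of chromosome 5 (GRCm38), in the order Dspp, Dmp1, Ibsp, Mepe and Spp1, within 270.3 kb (104170712 to 104441050). Bglap2 and Bglap lie on the minus strand of chromosome 3, at 88377736 to 88378699 and 88383501 to 88384464, beside Bglap3. The last 200 bases of the Bglap and Bglap2 transcripts are 99.5% identical, so a 3' library can misplace UMIs (unique molecular identifiers, 1 per captured transcript) between them, and their split is uncertain. Alpl lies on chromosome 4 (137741733 to 137796384), Enpp1 on chromosome 10 (24637914 to 24712159) and Phex on chromosome X (157162075 to 157415312), all on the minus strand.

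The promoters of Spp1, Ibsp and Dmp1 are shown because these 3 genes of the same stretch were counted at a higher level in fibroblast-like cluster 0 of the loaded side, below. For Dmp1, 1 cell of that side held 472 of the 678 UMIs, and this cell had 0 Spp1 UMIs. Joint regulation of the 3 genes was not tested. They are RefSeq sequences of GRCm38.p6, from 250 bases before to 50 after the start site, on the plus strand. Capitals mark AACCACA, a form of the site bound by RUNX factors, searched on both strands.
Spp1, chr5:104434861-104435160: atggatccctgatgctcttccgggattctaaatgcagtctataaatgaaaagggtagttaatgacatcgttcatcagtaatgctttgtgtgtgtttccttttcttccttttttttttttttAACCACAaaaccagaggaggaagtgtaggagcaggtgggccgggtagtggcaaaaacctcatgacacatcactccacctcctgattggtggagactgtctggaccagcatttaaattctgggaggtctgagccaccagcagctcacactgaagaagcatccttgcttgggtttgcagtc
Dmp1, chr5:104202367-104202666: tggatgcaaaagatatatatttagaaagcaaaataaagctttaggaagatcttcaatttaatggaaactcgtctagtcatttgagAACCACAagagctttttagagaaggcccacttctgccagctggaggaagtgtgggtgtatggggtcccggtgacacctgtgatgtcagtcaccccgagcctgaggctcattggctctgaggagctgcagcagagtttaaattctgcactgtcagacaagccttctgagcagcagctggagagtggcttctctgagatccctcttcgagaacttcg
Ibsp, chr5:104299037-104299336: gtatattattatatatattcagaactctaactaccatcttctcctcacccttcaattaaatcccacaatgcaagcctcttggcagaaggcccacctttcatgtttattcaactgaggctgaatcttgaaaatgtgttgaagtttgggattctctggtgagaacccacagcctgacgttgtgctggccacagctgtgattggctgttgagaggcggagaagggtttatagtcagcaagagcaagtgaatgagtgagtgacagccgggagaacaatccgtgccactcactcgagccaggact
AACCACA began 129 bases before the start site in the Spp1 window shown and 165 bases before it in the Dmp1 window shown. A further window of Spp1 (chr5:104435942-104436241) and of Dmp1 (chr5:104197325-104197624), not shown, held 0 matches. These letters are not in the Ibsp window. They occur in 5.27% of the 32851 RefSeq promoters of the same length. The letters TATAAA were found in 13.6% of these promoters and, on one strand or the other, in those of Spp1, Ibsp, Bglap, Alpl and Mepe. For Spp1 and Alpl, which have more than 1 window, they were not in every window. The AP-1 letters TGANTCA were found in 7.81% and in no window of the members. A match of 7 letters is a description and does not show a bound site. The promoter table held 8 of the 10 genes, all but Dspp and Bglap2.

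The OTM library held 36010800 UMIs in 1539 barcodes and the Control library 5723299 UMIs in 369 barcodes. After cells with few genes or a high mitochondrial share were left out, 1412 OTM and 348 Control cells remained, with medians of 19583 (OTM) and 14877 (Control) UMIs per cell. No barcode was shared by the libraries. Cells were clustered without the 10 genes, and clusters were named from marker lists that held none of them. Stroma (696 OTM and 158 Control cells) comprised 6 clusters. Cluster 6 (86 OTM and 26 Control cells) was osteoblast lineage-like. Cluster 0 (263 OTM, 30 Control) was fibroblast-like and led by Postn and Aspn, genes of periodontal ligament. Cluster 3 (162 OTM and 0 Control cells) was fibroblast-like and led by Mmp13, Timp1 and Sfrp4. Cluster 13 (32 OTM, 1 Control) was fibroblast-like and led by cell cycle genes, and cluster 10 (48 OTM, 6 Control) was mural-like, the smooth muscle cells and pericytes of vessels. Cluster 2 (105 OTM, 95 Control), led by Wif1, Pcp4, Mfap4 and Omd, scored 1.22 for the osteoblast list and 1.18 for the chondrocyte list and was left unnamed. That step changes results for bone cells, given below. Myeloid cells (268 OTM and 73 Control) comprised neutrophil-like cells (162 OTM, 38 Control), macrophage or monocyte-like cells (63 OTM, 31 Control), osteoclast-like cells (22 OTM, 0 Control) and unnamed phagocytes. No cluster could be named dental pulp or odontoblast, or osteocyte, so levels in pulp cells could not be given.

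Stroma held nearly all UMIs of Ibsp, Bglap and Alpl in both libraries, and Spp1 was the one member that was also abundant in myeloid cells. Stromal cells held 88.4% of Spp1 UMIs in the OTM library and 95.8% in the Control library, and myeloid cells 9.33% in the OTM and 1.58% in the Control library. The stromal shares were 99.4% (OTM) and 99.5% (Control) for Ibsp, 96.5% (OTM) and 95.2% (Control) for Bglap, and 97.9% (OTM) and 98.1% (Control) for Alpl. Levels are given in CPM, a gene's UMIs divided by all UMIs of the same cells scaled in the usual way, and ratios as log2 of OTM over Control. The brackets after a ratio are exact 95% limits, which cover counting error only and leave out variation between cells and between mice. In stroma, 8 of the 10 genes had at least 20 UMIs in 1 library. Of these, 2 were at least 2-fold higher in the OTM library (Spp1 and Enpp1), against 6.42% of all 14229 genes counted in the same way, and 0 were at least 2-fold lower, against 5.94%. The median log2 ratio of the 8 was 0.59, against 0.01 for all those genes.

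**Figure D1:**
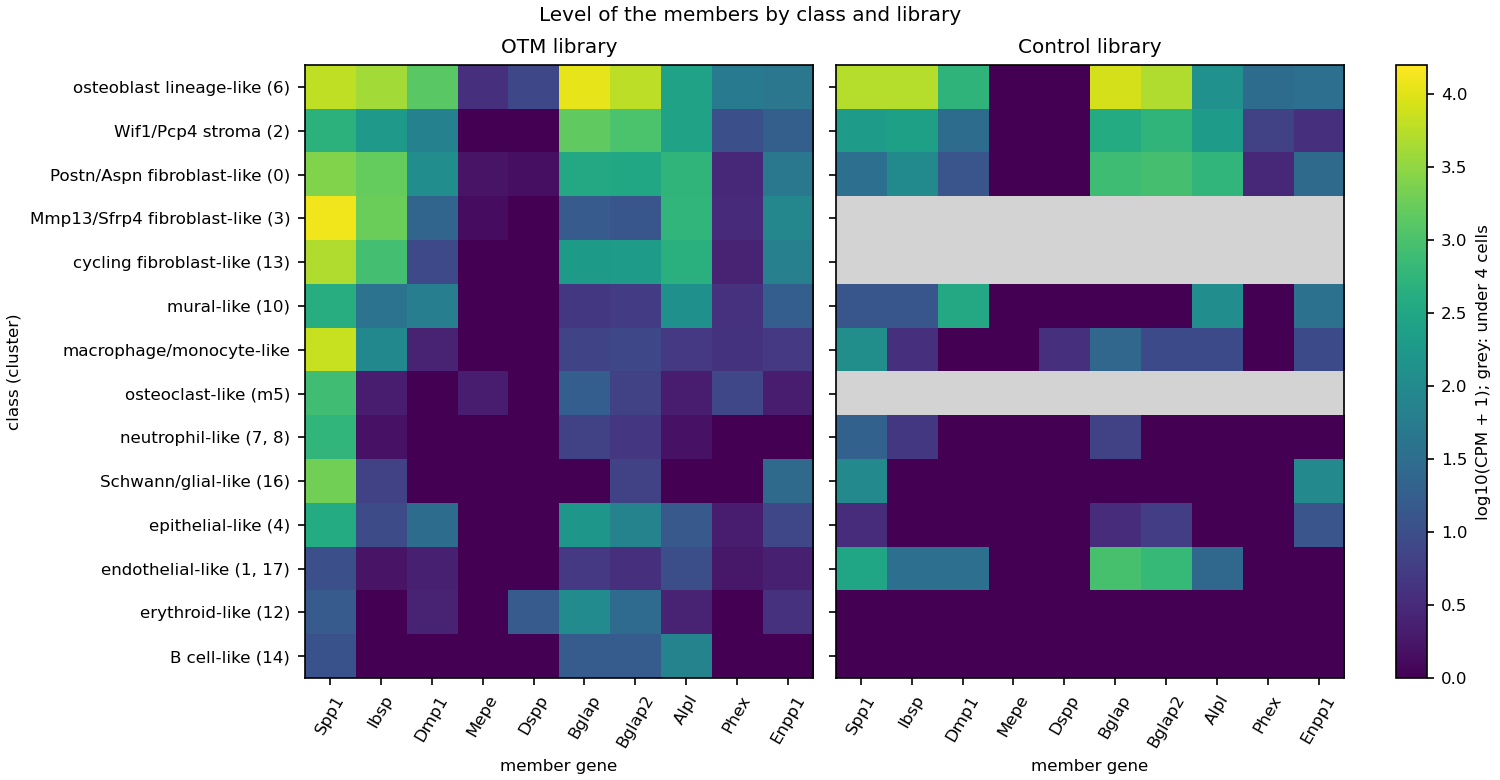
Level of each gene (columns) in each cell class (rows; cluster numbers in brackets), as log10(CPM + 1), in the OTM library (left) and the Control library (right); grey marks classes with under 4 cells. Spp1 stood at 12878 CPM in cluster 3 of the OTM library, and the osteocalcins were brightest in osteoblast lineage-like cells of both libraries.

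Spp1 was higher in the OTM library in stroma and in myeloid cells, and the ratio was larger in myeloid cells. In stroma it had 5717 CPM in the OTM library (103682 UMIs) and 1159 CPM in the Control library (3937 UMIs), a log2 ratio of 2.30 (2.26 to 2.35). In myeloid cells it had 2609 CPM in the OTM library (10952 UMIs) and 67.8 CPM in the Control library (65 UMIs), a log2 ratio of 5.27 (4.91 to 5.64). Spp1 in stroma was 2.19-fold its level in myeloid cells in the OTM library (2.15 to 2.24) and 17.1-fold in the Control library (13.4 to 22.2). The OTM ratio of stroma over myeloid cells (log2 1.13) depended on a few clusters and cells. Without clusters 3 and 13, which held 1 Control cell between them, the OTM stroma and myeloid levels were nearly equal (log2 -0.01), and the stromal ratio of OTM over Control was 1.13. Without cluster m0, a macrophage cluster, the OTM log2 ratio of stroma over myeloid cells was 2.52, and without the richest cell of each compartment it was 1.72. The exclusions of clusters were chosen after the values were seen.

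Within stroma, most Spp1 UMIs were in fibroblast-like cells in the OTM library and in osteoblast lineage-like cells in the Control library. Such shares also depend on the cells captured, and 457 of 1412 OTM and 31 of 348 Control cells were fibroblast-like. They depend too on the border of the osteoblast lineage-like class, which had 86 OTM and 26 Control cells here. It had 175 OTM and 60 Control cells with a stricter cell filter, and 55 and 20 with members allowed in clustering. With each library clustered alone the Control library had 0 such cells. The shares under those settings are not given here. Osteoblast lineage-like cells held 11.4% of all OTM and 85.1% of all Control Spp1 UMIs, at levels of 6388 CPM in the OTM and 5480 CPM in the Control library (log2 0.22, 0.17 to 0.28). Without the richest cell of each library that ratio was -0.19. Fibroblast-like cells held 75.5% of OTM Spp1 UMIs (88570 UMIs, 7135 CPM) and 0.414% of Control Spp1 UMIs (17 UMIs, 28.8 CPM), a log2 ratio of 7.95 (7.27 to 8.73). Cluster 3 alone, seen in the OTM library, held 57.0% of that library's Spp1 UMIs at 12878 CPM.

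A fibroblast-like cluster with cells in both libraries showed the same direction. In cluster 0 Spp1 had 15056 UMIs in the OTM library and 17 in the Control library, or 2550 CPM (OTM) and 33.2 CPM (Control) (log2 6.26, 5.58 to 7.04). The UMIs sat in few cells. Of the 263 OTM cells 3 held 50% of the UMIs, with 3801, 3516 and 2696 UMIs each, and 22 cells had 10 or more, while 1 of the 30 Control cells did. Without the richest cell of each library the levels were 1915 CPM in the OTM and 11.8 CPM in the Control library. The share of cluster 0 cells with any Spp1 UMI was 29.3% in the OTM and 13.3% in the Control library, but after thinning to 2000 UMIs, which left out 7 OTM and 2 Control cells below that depth, it was 10.9% in OTM and 10.7% in Control cells. The OTM level in cluster 0 thus rested on a small number of cells with very many Spp1 UMIs. Cells that rare could be missed among only 30 Control cells. Whether the libraries differ in how often such cells occur therefore cannot be told. At equal depth no difference in the share of cells with Spp1 was detectable. In cluster 2 Spp1 had 495 CPM in the OTM and 203 CPM in the Control library (log2 1.29, 1.13 to 1.45), and 1 cell held 54.0% of the OTM UMIs and 1 cell 47.0% of the Control UMIs.

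**Figure D2:**
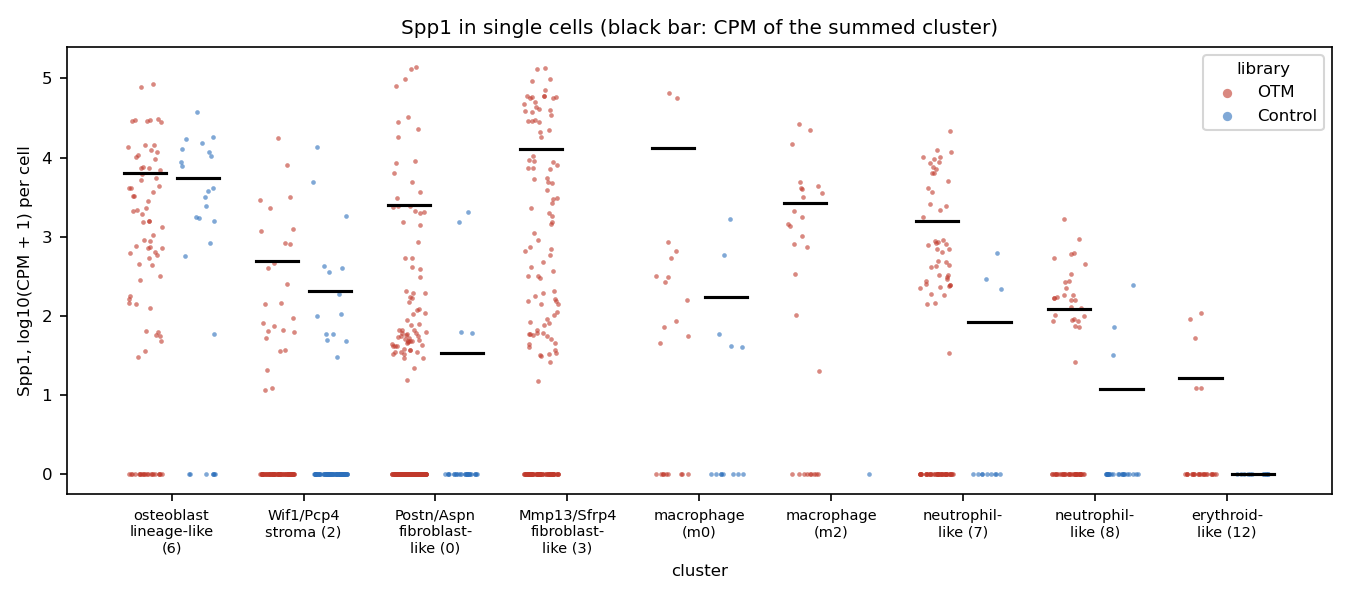
Spp1 in single cells as log10(CPM + 1), by cluster, with OTM cells in red left of Control cells in blue; points at 0 are cells with no Spp1 UMI and black bars are the CPM of the summed cluster. In cluster 0 a few OTM cells stand far above the rest, and the OTM bar stands at 2550 CPM against 33.2 CPM for Control cells. In cluster 3, 59 of 162 OTM cells had 10 or more Spp1 UMIs.

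Within myeloid cells Spp1 was counted in macrophage, neutrophil and osteoclast-like clusters. Macrophage or monocyte-like cells had 7071 CPM in the OTM library (8904 UMIs) and 118 CPM in the Control library (45 UMIs), a log2 ratio of 5.90 (5.48 to 6.36). Cluster m0, led by Ccl4, C1qa and C1qb, had 13383 CPM in 22 OTM cells and 172 CPM in 13 Control cells. In the OTM library 2 of its cells held 4375 and 2850 of its 7302 UMIs. These OTM cells had 6 and 1 UMIs of 9 stromal matrix genes (7 collagen genes, Sparc and Serpinh1) and 0 of Ibsp and Bglap, so stromal markers were at or near 0 in them. Without cluster m0 the myeloid log2 ratio was 4.62. Cluster m2, led by Ctss, Tgfbi, Lgals3 and Trem2, had 2641 CPM in 28 OTM cells, 19 of which had a Spp1 UMI, and 1 Control cell. Osteoclast-like cells, the bone-resorbing phagocytes, had 814 CPM in 22 OTM cells, 19 of which had a Spp1 UMI. None of the 348 Control cells was osteoclast-like, which allows a share of up to 1.05% (exact binomial limit).

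Neutrophil-like cells had 573 CPM of Spp1 in the OTM library (949 UMIs) and 19.1 CPM in the Control library (10 UMIs). The level was 1568 CPM in 96 OTM cells and 82.6 CPM in 12 Control cells of cluster 7, led by Acod1 and Il1b. It was 122 CPM in 66 OTM cells and 10.8 CPM in 26 Control cells of cluster 8, led by the granule genes Ngp, Camp and Ltf. The richest OTM cell of cluster 7 had 100 Spp1 UMIs among 4652 and 0 UMIs of the 9 stromal matrix genes. After thinning to 2000 UMIs, which left out 12 OTM and 6 Control myeloid cells, 34.0% of OTM myeloid cells (28.2% to 40.1%) and 7.46% of Control myeloid cells (2.47% to 16.6%) had a Spp1 UMI. Erythroid-like cells, which should lack Spp1, had one in 1 of 25 OTM cells and 0 of 12 Control cells at that depth, and median depths before thinning of 15012 UMIs in OTM and 19638 in Control cells, against 7991 in OTM and 12484 in Control myeloid cells. The erythroid level was 15.2 CPM in the OTM library (10 UMIs) and 0 UMIs in the Control library.

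The number of Spp1 UMIs per Bglap UMI differed widely between these carriers. It was 0.587 in OTM and 0.637 in Control osteoblast lineage-like cells. In the OTM library it was 7.35 in cluster 0, 857 in cluster 3 and 135 in cluster 7, over 2048, 78 and 6 Bglap UMIs. The cluster 7 value thus rests on very few Bglap UMIs. In the Control library the number was 0.0417 in cluster 0 (17 Spp1 and 408 Bglap UMIs) and 1.67 in cluster 7 (5 and 3 UMIs). In the other classes a few cells decided the level. Epithelial-like cells had 378 CPM of Spp1 in the OTM library (126 cells) and 2.37 CPM in the Control library (20 cells), but 1 cell with 1788 UMIs held 85.9% of the OTM sum and also had 991 UMIs of Col1a1. Endothelial-like cells had 9.48 CPM in the OTM and 292 CPM in the Control library, and all 97 Control UMIs were in 1 cell, which had 3347 UMIs of Col1a1. Schwann or glial-like cells had 2036 CPM in 15 OTM cells and 92.2 CPM in 4 Control cells (369 UMIs in OTM and 5 in Control cells), and 14 of the OTM cells had a Spp1 UMI. The OTM cells also had 6797 CPM of the 9 stromal matrix genes, with 33 UMIs of Col1a1, and 1 UMI of Ibsp and 0 of Bglap. The part of stromal transcripts in the Spp1 value was not tested.

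**Figure D3:**
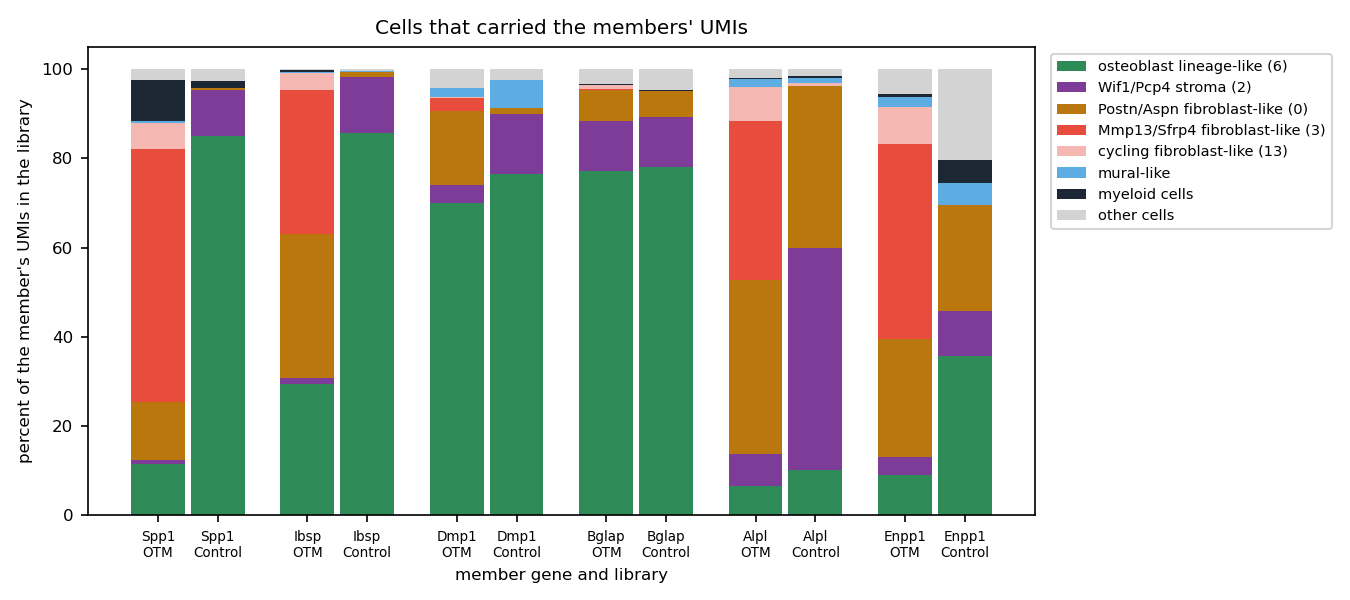
Percent of each gene's UMIs held by each group of cells, with the OTM bar left of the Control bar for each gene. Osteoblast lineage-like cells (green) held 11.4% of OTM and 85.1% of Control Spp1, 29.3% of OTM and 85.7% of Control Ibsp, and 77.1% of OTM and 78.1% of Control Bglap. These shares depend on the border of that class.

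Ibsp, which encodes an early matrix protein of mineralizing tissue, was also carried by fibroblast-like cells in the OTM library. In cluster 0 the fibroblast score was 1.84 and the next best 0.88, for the osteoblast lineage list. In clusters 3 and 13 the fibroblast scores were 1.78 and 1.64. The next best there were 0.70 and 0.66, for the dental pulp or odontoblast list. Whether these clusters held mineralizing cells of another type was not tested. Fibroblast-like cells held 68.5% of OTM Ibsp UMIs and 1.24% of Control Ibsp UMIs, and osteoblast lineage-like cells 29.3% (OTM) and 85.7% (Control). These shares depend on the class border in the same way as those of Spp1. In cluster 0 Ibsp had 1611 CPM in the OTM library (9514 UMIs) and 97.7 CPM in the Control library (50 UMIs), a log2 ratio of 4.04 (3.64 to 4.47), and 1369 CPM (OTM) and 46.2 CPM (Control) without the richest cell of each. Here 47 of 263 OTM cells had 10 or more Ibsp UMIs, and 2 of 30 Control cells did. Cluster 3 had 1831 CPM in the OTM library. In osteoblast lineage-like cells Ibsp had 4111 CPM in the OTM and 5399 CPM in the Control library (log2 -0.39, -0.45 to -0.34), and in cluster 2 it had 183 CPM (OTM) and 242 CPM (Control; log2 -0.40, -0.59 to -0.21). Without the richest cell of each library the cluster 2 levels were 58.1 CPM (OTM) and 152 CPM (Control). Over all stroma Ibsp had 1616 CPM in the OTM and 1178 CPM in the Control library (log2 0.46, 0.41 to 0.50).

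Ibsp in myeloid cells rested on a single cell. There 4 genes reached 20 UMIs and 2 of them, Spp1 and Ibsp, were at least 2-fold higher in the OTM library, against 21.4% of all genes counted in the same way, and 0 were at least 2-fold lower, against 4.87%. Of the 117 OTM Ibsp UMIs 113 were in 1 cell of cluster m0, which Scrublet called a doublet and which had 697 UMIs of Col1a1. The Control library had 3 UMIs in myeloid cells. Without the richest cell of each library the levels were 0.964 CPM in the OTM and 2.10 CPM in the Control library.

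Dmp1, a gene of late osteoblasts and osteocytes, was at least 2-fold higher in OTM osteoblast lineage-like cells. It had 1351 CPM in the OTM library (2839 UMIs, 54 of 86 cells) and 542 CPM in the Control library (346 UMIs, 14 of 26 cells), a log2 ratio of 1.32 (1.15 to 1.48). One Control cell with 202268 UMIs held 60.1% of the Control sum, and without the richest cell of each library the ratio was 2.04. In cluster 0 it had 115 CPM in the OTM and 11.7 CPM in the Control library, where 1 cell held 69.6% of the 678 OTM UMIs and 1 cell all 6 Control UMIs. Mural-like cells also carried Dmp1, with 61.4 CPM in 48 OTM cells and 348 CPM in 6 Control cells (81 UMIs in OTM and 28 in Control cells; log2 -2.50, -3.14 to -1.83). A Dmp1 UMI was in 15 of these OTM cells and 5 of these Control cells, and mural-like cells had 5 Bglap UMIs in the OTM and 0 in the Control library. Mepe, a gene of osteocytes, had 13 UMIs in 5 OTM cells and 0 in Control cells. Dspp, the dentin gene of odontoblasts, had 28 UMIs in 6 OTM cells and 1 UMI in the Control library. Of the Dspp UMIs 15 were in 2 osteoblast lineage-like cells, 14 of them in 1 cell, and 10 in 1 erythroid-like cell. In OTM osteoblast lineage-like cells Dspp had 7.14 CPM as a sum and 213 CPM as a mean over cells. The identity of the cell with 14 UMIs was not tested. Both genes were too sparse for a comparison.

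The osteocalcins had their highest levels in osteoblast lineage-like cells in both libraries. Bglap had 10885 CPM in OTM and 8601 CPM in Control osteoblast lineage-like cells (log2 0.34, 0.30 to 0.38), and Bglap2 had 5939 CPM (OTM) and 5013 CPM (Control) there (log2 0.24, 0.19 to 0.30). Cluster 3, which had the highest summed Spp1 level of any stromal cluster in the OTM library, had only 15.03 CPM of Bglap and 12.3 CPM of Bglap2. In cluster 0 Bglap had 347 CPM in the OTM and 797 CPM in the Control library (log2 -1.20, -1.35 to -1.04). A single Control cell of 5346 UMIs held 321 of the 408 Control UMIs, and without the richest cell of each library the levels were 249 CPM (OTM) and 172 CPM (Control), the opposite direction. In cluster 2 Bglap had 1467 CPM in the OTM and 380 CPM in the Control library (log2 1.95, 1.84 to 2.06). There 1 OTM cell of 210308 UMIs held 2645 of 3377 UMIs, and without the richest cell of each library the levels were 350 CPM (OTM) and 306 CPM (Control). Bglap2 in cluster 0 kept its direction without those cells, at 269 CPM in the OTM and 519 CPM in the Control library, and in cluster 2 it did not, at 434 CPM (OTM) and 502 CPM (Control). Over all stroma Bglap had 1579 CPM in the OTM and 1969 CPM in the Control library (log2 -0.32, -0.36 to -0.28), and a log2 ratio of 0.03 without the richest cells. Bglap2 had 944 CPM (OTM) and 1421 CPM (Control) (log2 -0.59, -0.64 to -0.54).

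Members past 2-fold were also counted in clusters 0, 2 and 6. In cluster 0, 7 genes reached 20 UMIs, of which Spp1, Ibsp and Dmp1 were at least 2-fold higher in the OTM library (background 5.24% of 11510 genes) and Bglap and Bglap2 at least 2-fold lower (background 5.11%). Of the Dmp1 UMIs there, 1 OTM cell held 472 of 678 and 1 Control cell all 6. Neither osteocalcin gene was 2-fold lower in cluster 0 without the richest cell of each library (log2 0.53 for Bglap and -0.95 for Bglap2). In cluster 2, 8 genes reached 20 UMIs, of which Spp1, Dmp1, Bglap and Enpp1 were at least 2-fold higher (background 2.48% of 9662 genes) and 0 lower (background 2.70%). Without the richest cells Bglap was no longer 2-fold higher in cluster 2 (log2 0.19). In osteoblast lineage-like cells 8 genes reached 20 UMIs, of which Dmp1 was at least 2-fold higher (background 9.95% of 8536 genes) and 0 lower (background 1.30%). This last count depends on the border of the class. With cluster 2 counted as bone cells, as an earlier form of the naming rule had it, 6 of the genes were at least 2-fold higher in place of 1. The rule was revised after the scores and levels of cluster 2 had been seen, so the ratios above describe cluster 6 alone.

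**Figure D4:**
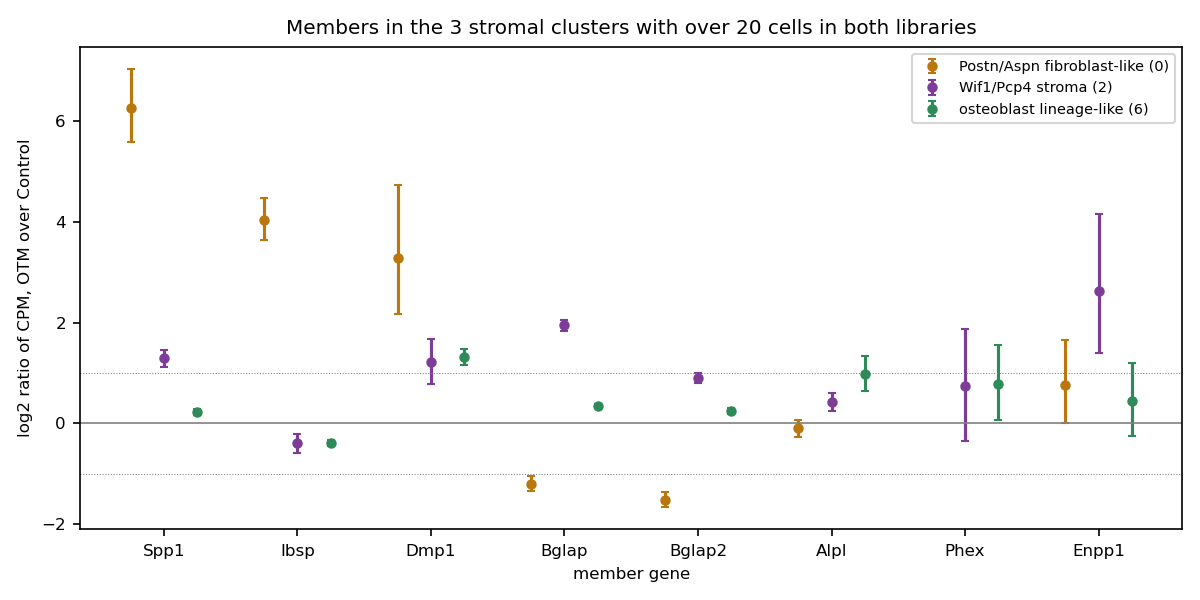
Log2 ratio of CPM, OTM over Control, for 8 genes in clusters 0, 2 and 6; bars are exact 95% limits for counting error only, dotted lines mark 2-fold, and genes with under 20 UMIs in both libraries are left out. Spp1 (6.26) and Ibsp (4.04) stand apart in cluster 0, Bglap points down there (-1.20) and up in cluster 2 (1.95), and cluster 6 values lie between -0.39 and 1.32.

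Alpl was spread over many cells. Stroma had 451 CPM in the OTM library (8176 UMIs) and 240 CPM in the Control library (814 UMIs), a log2 ratio of 0.91 (0.81 to 1.02). In cluster 0 it had 550 CPM in the OTM and 590 CPM in the Control library (log2 -0.10, -0.27 to 0.07), and 89.7% of OTM and 90.0% of Control cells had a UMI. Cluster 3 had 576 CPM in the OTM library. In osteoblast lineage-like cells Alpl had 257 CPM in the OTM and 130 CPM in the Control library (log2 0.98, 0.65 to 1.34), and in cluster 2 it had 265 CPM (OTM) and 198 CPM (Control). Fibroblast-like cells held 82.1% of OTM and 37.1% of Control Alpl UMIs, and cluster 2 held 7.30% (OTM) and 49.9% (Control), beside 105 of 1412 OTM and 95 of 348 Control cells in that cluster. The part of this mix of cells in the stromal Alpl ratio was not tested. To reach 50% of the UMIs of cluster 0 in the OTM library took 54 cells for Alpl, against 5 for Ibsp and 3 for Spp1. Among cells that should lack Alpl, 0 of 25 OTM and 0 of 12 Control erythroid-like cells had a UMI after thinning to 2000 UMIs, against 49.5% of OTM and 28.4% of Control stromal cells.

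Enpp1, which opposes Alpl by making pyrophosphate, had 53.6 CPM in OTM stroma (973 UMIs) and 12.95 CPM in Control stroma (44 UMIs), a log2 ratio of 2.05 (1.61 to 2.52). Cluster 3 held 43.6% of the OTM UMIs at 87.3 CPM. In cluster 0 the levels were 46.6 CPM in the OTM and 27.4 CPM in the Control library (log2 0.77, limits that include no difference), and in cluster 2 they were 17.8 CPM in OTM and 2.87 CPM in Control cells (41 OTM and 6 Control UMIs). Osteoblast lineage-like cells had 44.7 CPM in the OTM and 32.9 CPM in the Control library (log2 0.44, -0.25 to 1.20). Cluster 2 made up 105 of 696 OTM and 95 of 158 Control stromal cells, and cluster 3 had 0 Control cells. The part of this mix of cells in the stromal Enpp1 ratio was not tested. Phex had 158 UMIs in OTM stroma and 32 in Control stroma, 8.71 CPM (OTM) and 9.42 CPM (Control; log2 -0.11, -0.67 to 0.48). Most of them were in osteoblast lineage-like cells, which held 59.8% of OTM and 55.9% of Control Phex UMIs at 50.9 CPM (OTM) and 29.8 CPM (Control), and 1 Control cell held 14 of the 19 Control UMIs there. Without the richest cell of each library the Phex log2 ratio was 1.86 in those cells and 0.43 over all stroma, where the direction turned.

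The cells rich in Spp1 differed in what they carried with it. A cell is called rich here when it had 10 or more UMIs of a gene, with no correction for depth. Of 47 OTM and 17 Control cells rich in Spp1 in the osteoblast lineage-like cluster, 42 OTM and 14 Control cells were also rich in Bglap, and 34 OTM and 11 Control cells in Ibsp. Of 59 Spp1-rich cells in cluster 3 of the OTM library 40 were rich in Ibsp, 3 in Dmp1 and 2 in Bglap. Of 22 Spp1-rich OTM cells in cluster 0, 15 were rich in Ibsp and 6 in Bglap, and the Control library had 1 Spp1-rich cell there. The Spp1-rich fibroblast-like cells thus were often rich in Ibsp and mostly not rich in Bglap. Dmp1-rich cells of cluster 6 were rich in Bglap in 33 of 36 OTM cells and in 4 of 4 Control cells. Over all OTM cells, 56 of 86 were rich in Bglap in cluster 6, 2 of 162 in cluster 3 and 21 of 263 in cluster 0. For Ibsp these counts were 52, 49 and 47. Of the 26 Control cells of cluster 6, 18 were rich in Bglap and 19 in Ibsp. The Bglap contrast between the clusters was thus not particular to their Spp1-rich cells. Within cluster 0 of the OTM library, Bglap-rich cells were more frequent among Spp1-rich cells (6 of 22) than among all cells (21 of 263).

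**Figure D5:**
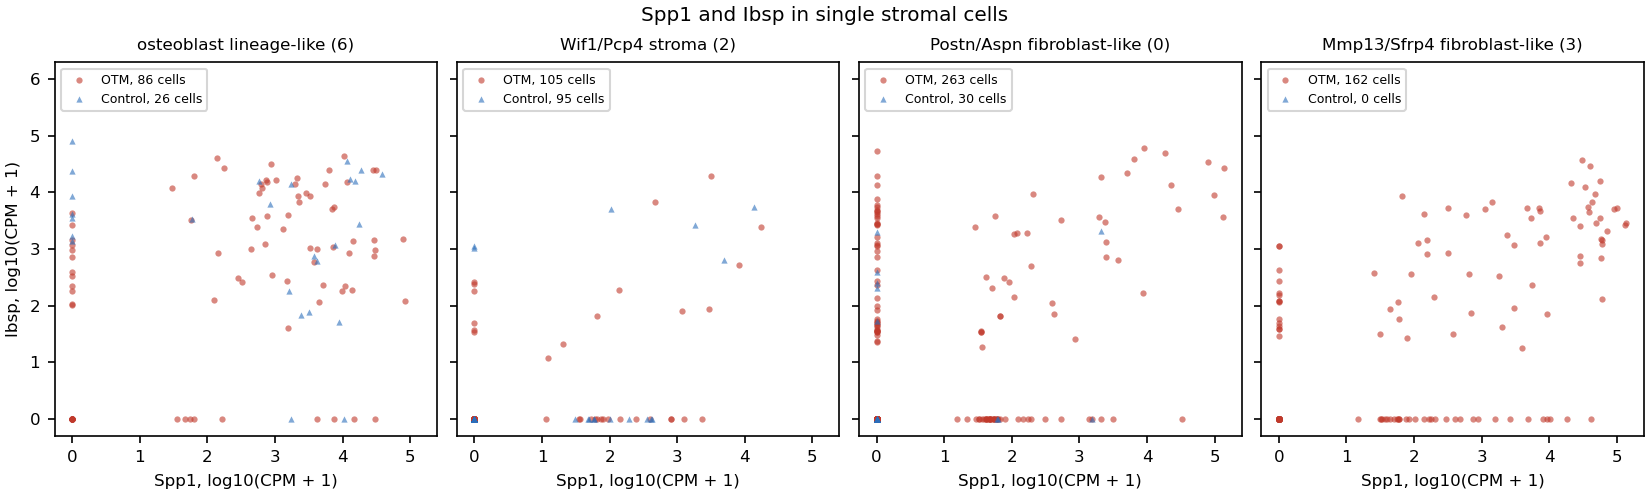
Spp1 against Ibsp in single cells of 4 stromal clusters, both as log10(CPM + 1); red circles are OTM cells, blue triangles Control cells, and points on an axis have no UMI of 1 gene. In cluster 3 of the OTM library 40 of the 59 cells with 10 or more Spp1 UMIs also had 10 or more Ibsp UMIs.

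Other genes of mineralization were counted from a list of 24. In stroma 19 of them reached 20 UMIs, of which 1 was at least 2-fold higher (background 6.42%) and 1 at least 2-fold lower (background 5.94%) in the OTM library, which is near the share of all genes. Mgp, an inhibitor of soft-tissue calcification, had 829 CPM in OTM and 101 CPM in Control stroma (log2 3.04, 2.88 to 3.20). Smpd3, a sphingomyelinase needed for bone mineral, had 66.5 CPM in OTM and 221 CPM in Control stroma (log2 -1.74, -1.87 to -1.60). Smpd3 is also in the list of osteoblast markers. It was not among the genes counted as lower in cluster 0, cluster 2 or osteoblast lineage-like cells, below. Cluster 2 made up 105 of 696 OTM and 95 of 158 Control stromal cells. The part of this mix of cells in the Smpd3 and Mgp ratios was not tested. Beside Mgp the most abundant genes of the list were the collagen genes Col1a1 and Col1a2 and the matrix gene Sparc, with log2 ratios of -0.09, -0.01 and -0.14. The median log2 ratio of the 19 was -0.01. In myeloid cells 5 of 11 were at least 2-fold higher (background 21.4%) and 0 lower (background 4.87%), with a median log2 ratio of 0.87. The 5 were Sparc, Col1a1, Col1a2, Ank and Mgp. Of the 1194 Col1a1 UMIs of OTM myeloid cells, 697 were in the cluster m0 cell that Scrublet called a doublet. That cell was kept in this count, so the myeloid values of the matrix genes rest in part on it. In cluster 2, 3 of 16 were higher (Ank, Mgp and Bglap3; background 2.48%) and 0 lower, and in osteoblast lineage-like cells 2 of 18 were higher (Mgp and Panx3; background 9.95%) and 0 lower. In cluster 0, 2 of 16 were higher (Ank and Fam20c; background 5.24%) and 1 lower (Bglap3; background 5.11%). There Ank, a transporter that exports pyrophosphate or its precursor, had 234 CPM in OTM and 41.0 CPM in Control cells (log2 2.51, 1.90 to 3.21).

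Receptors and modifiers of osteopontin were counted from a list of 15. In stroma 13 reached 20 UMIs, and 5 were at least 2-fold higher (background 6.42%) and 0 lower (background 5.94%) in the OTM library. They were the integrin subunit Itgb3 (18.4 CPM in the OTM and 2.94 CPM in the Control library), the transglutaminase Tgm2 (47.3 CPM in OTM, 15.3 CPM in Control), and the proteases Mmp9 (539 OTM and 3 Control UMIs), Mmp12 (101 OTM and 3 Control UMIs) and Mmp3 (185 OTM and 0 Control UMIs). The last 3 rest on 3 or fewer Control UMIs. The receptor gene Cd44 had 250 CPM in OTM and 140 CPM in Control stroma (log2 0.84, 0.70 to 0.98), and is named after its value was seen. In myeloid cells 11 reached 20 UMIs, with 5 at least 2-fold higher in the OTM library (Itgav, Itgb1, Itgb3, Mmp9 and Tgm2; background 21.4%) and 1 lower (Itga9; background 4.87%). Itgb3, which is also in the list of osteoclast markers, had 66.5 CPM in OTM and 4.17 CPM in Control myeloid cells.

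Genes whose levels ran most like those of 3 members were listed as a description over 20 class-by-library groups of at least 20 cells, among 11654 genes. The groups share libraries, and cells of related classes, so the correlations of log2(CPM + 1) carry no test. For Spp1 they included Lif (r = 0.75), Metrnl, Dtx4 and Mitf (0.66). For Ibsp they were Lox (0.93), Lamc3, Col1a1, Col1a2 and Mme (0.90). For Alpl they were Angptl1 (0.96), Dnm1, Srpx, Irs1 and Aak1 (0.94).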

How the data were processed

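For each of 2 libraries the authors deposited unnormalized UMI counts per gene and barcode. The file headers name Cell Ranger 7.0.1 as their source, and Seurat and the build mm10 appear in the submitters' processing notes. The members, gene lists and tests were chosen with earlier results of these data known. Barcodes with under 200 genes or over 20% mitochondrial counts were left out. For clustering, each cell's total was set to 10000 on a log scale, and 2000 variable genes without the members gave 30 components, 15 neighbours and Leiden clusters at resolution 1 (Python 3.11.15, scanpy 1.11.5, leidenalg 0.10.2). Mononuclear phagocytes were clustered again with 1500 genes, 10 components, 10 neighbours and resolution 0.8. Clusters were named from 22 marker lists when the best score was at least 0.5 and at least 3 markers were detected. This naming rule was revised once, after the scores and member levels of cluster 2 had been seen: a tie among leading markers now leaves a cluster unnamed. The compartment score minimum of 0.3, the re-clustering, the depth of 2000 UMIs for thinning, the 10-UMI minimum for rich cells, the motifs, the use of clusters 0 and 2 and the values without the richest cell were also chosen after values had been seen. Scrublet called 8 OTM and 2 Control cells doublets, and these cells were kept.

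Levels are summed UMIs of a gene over all UMIs of the class (CPM), with exact Poisson limits. Ratios have exact conditional binomial limits, and shares have Clopper-Pearson limits. They cover counting error only. With 1 pooled library a group there was no test. A gene was compared in a class when it had at least 20 UMIs in 1 library, and a ratio of at least 2 was counted. Against a group with 0 UMIs, 3 UMIs served as the floor. All 10 members were named. Of the other listed genes, those past 2-fold, the most abundant in stroma and the 5 most like Spp1, Ibsp and Alpl were named, except 1 that is not reported here. The counting was tested on simulated data. These were Poisson counts, the assumption behind the limits, with no variation between cells. That test therefore cannot speak to sums carried by a few cells. Gene coordinates are from GENCODE M21 (GRCm38).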

Additional observations from a re-analysis of the deposited data

Results flagged for a closer look

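For 3 genes the ratio of OTM over Control pointed in opposite directions in clusters 0 and 2 with limits for counting error that left out 0 in both, and none of these differences was tested. Ibsp had a log2 ratio of 4.044 in cluster 0 and -0.3995 in cluster 2, a gap of 4.443. Bglap had 1.948 in cluster 2 and -1.201 in cluster 0, a gap of 3.149, and without the richest cell of each library the ratios were 0.19 in cluster 2 and 0.53 in cluster 0. Bglap2 had 0.9033 in cluster 2 and -1.521 in cluster 0, a gap of 2.425, and without those cells -0.21 in cluster 2 and -0.95 in cluster 0.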

How the results depend on the processing

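Values are log2 ratios, and the causes of the shifts were not tested. Spp1 in stroma, OTM over Control (2.302), was 2.367 with a stricter cell filter, 2.384 with each library clustered alone, 1.834 as a mean over cells, 2.434 without the richest cells and 1.129 without clusters 3 and 13. In myeloid cells (5.265) it was 4.414 as a mean over cells and 4.616 without cluster m0. Spp1 in stroma over myeloid cells in the OTM library (1.132) was 1.188 with no cell filter, 1.045 with members allowed in clustering, 1.242 with each cell's own scores, 1.181 with libraries clustered alone, 1.467 as a mean over cells, 1.719 without the richest cells and 2.516 without m0. It turned to -0.007756 (-0.03935 to 0.02392) without clusters 3 and 13. In the Control library (4.095) it was 4.519 without the richest cells and 4.83 without m0. The number of members at least 2-fold higher in osteoblast lineage-like cells, 1 here, was 2 with the stricter filter, 6 with doublets removed, 3 with members allowed in clustering, 3 with each cell's own scores and 6 with cluster 2 counted in. The class had 86 OTM and 26 Control cells here, against 137 and 97 with doublets removed. Clustered alone, the Control library had 0 such cells, so that setting gave no value. Stroma had 2 members higher, and 3 without clusters 3 and 13. Of 127 alternative values for single members 71 moved beyond the counting limits and 56 did not, and 112 kept their sign and 15 did not. No paired analysis was possible because each group had 1 library. Depth limits Mepe, Dspp and Phex, and the Control library held fewer cells in every named class.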
